A study of Mus musculus with 4 samples.

Results

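Aminoacyl-tRNA synthetases join each amino acid to its tRNA, the step that sets which amino acid a codon stands for. Cytosolic enzymes serve the ribosomes that translate nuclear genes, part of them held together in the multisynthetase complex, and a separate set of nuclear-encoded enzymes is imported into mitochondria. When amino acids run short, the factor ATF4 and the amino acid response raise transcription of many cytosolic members. The genes described here are 36 synthetase genes picked by name, 20 cytosolic and 16 mitochondrial, of 22380 protein-coding genes in the GENCODE M1 annotation of mm9. Gars and Kars are counted as cytosolic, although each also encodes the mitochondrial form. A gene was taken to have an SHP peak when the interval of a deposited peak lay within 5 kb of its gene body. SHP, the product of Nr0b2, cannot bind DNA itself, so its ChIP-seq peaks mark sites where other proteins, whose target genes it helps to silence, tether it.

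Livers of male wild-type C57BL/6 mice aged 8 to 12 weeks were compared 2 h after an intravenous dose (tail vein) of either vehicle or 1 mg/kg FGF19, the ileal hormone of the fed state. Food had been withheld from all animals for 12 h beforehand. Each group is a pool of 3 mice and gave 1 SHP ChIP library (antibody sc-30169) with 1 input library. No replicate error can be given, and no difference between the groups carries a p-value. After the peak caller's filter the ChIP libraries held 15473647 (vehicle) and 13444078 (FGF19) tags, and the lists hold 1508 and 3155 peaks. Median fold enrichment over input stood at 4.14 in the vehicle list, at 4.05 in the FGF19 list, and the median pileup, the number of extended ChIP tags over the summit, was 24 in both. No marker of liver identity can be read from a list of SHP peaks, so the tissue label was not checked.

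SHP peaks were found at 14 of the 36 synthetase genes. With vehicle, 7 genes had a peak within 5 kb, which is 19.4% (Wilson 95% interval 9.75 to 35.0, counting error only). Of all protein-coding genes, 7.93% had one. With FGF19, 14 genes had a peak, which is 38.9% (24.8 to 55.1), where the share of all protein-coding genes was 16.3%. The 7 genes of the vehicle list were all in the FGF19 list. They were Cars, Farsb, Qars, Vars, Wars, Fars2 and Lars2, and among all protein-coding genes 4.31% were in both lists. A peak with FGF19 only was listed for the other 7, which were Aars, Dars, Kars, Aars2, Cars2, Ears2 and Vars2, against 12.0% of all protein-coding genes. No synthetase gene had a peak with vehicle only, where 3.62% of all protein-coding genes did. Lars2 was in both lists through a peak near its end, and its promoter peak was in the vehicle list only. The shared peaks counted for Qars and Wars lay at Qrich1 and Slc25a47.

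Synthetase genes had a median gene length of 25324 bp, against 15421 bp for all protein-coding genes. The stretch searched by the 5 kb rule is wider for a longer gene, and the part of length in the counts was not tested. Counting only summits within 1 kb of any annotated TSS of the gene itself gave 5 genes with vehicle. That is 13.9% (6.08 to 28.7), against 5.52% of all protein-coding genes. A gene with several annotated starts has several such windows. With FGF19 this rule gave 9 genes, 25% (13.8 to 41.1) against 12.5%. By this rule 4 genes were in both lists (2.59% of all protein-coding genes were), 5 with FGF19 only (9.91%) and 1, Lars2, with vehicle only (2.94%). The number of peaks in each list matters for these counts. With only the 1508 FGF19 peaks of smallest q-value kept, 5 synthetase genes had a peak within 5 kb, namely Aars, Farsb, Vars, Aars2 and Fars2, against 8.06% of all protein-coding genes, and 4 of them at the promoter, against 5.98%. The vehicle list, of the same length, held 7.

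**Figure D1:**
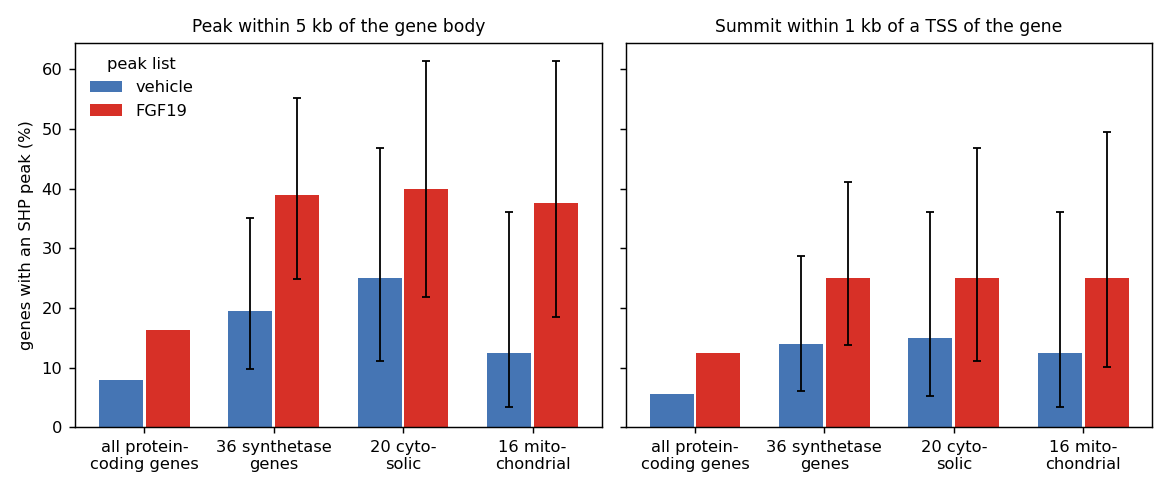
Share of genes with an SHP peak (y axis, percent) for all protein-coding genes, the 36 synthetase genes and their cytosolic and mitochondrial classes, by peak within 5 kb of the gene body (left) and by summit within 1 kb of a TSS of the gene (right). Blue bars are the vehicle list and red bars the FGF19 list, and error bars are Wilson 95% intervals that cover counting error only; the synthetase bars stand above those of all genes, and the cytosolic and mitochondrial intervals overlap throughout.

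Cytosolic and mitochondrial enzymes were covered at much the same rate with FGF19. A peak within 5 kb was listed for 8 of 20 cytosolic genes, 40% (21.9 to 61.3), and for 6 of 16 mitochondrial genes, 37.5% (18.5 to 61.4). With vehicle the counts were 5 of 20, 25% (11.2 to 46.9), and 2 of 16, 12.5% (3.50 to 36.02). The vehicle share of all protein-coding genes was 7.93%. The intervals of the classes overlap widely in both lists. Genes of a class are not replicates, and a difference between the classes was not tested. At promoters, 5 cytosolic and 4 mitochondrial genes had a summit with FGF19, which is 25% of each class. Within the cytosolic class, 3 of the 8 enzymes of the multisynthetase complex had a peak with FGF19 (Dars, Kars and Qars), as did 5 of the 12 outside it. The share of all protein-coding genes was 16.3%. The peaks counted for Qars and Wars lay at Qrich1 and Slc25a47. At promoters the counts were 2 of 8 and 3 of 12, against 12.5% of all protein-coding genes. By structural class, which separates enzymes by the fold of the catalytic domain, the FGF19 list held 8 of 18 class I genes and 6 of 17 class II genes. Eprs, which belongs to both, had none. At promoters it held 4 class I and 5 class II genes, and the same shares of all protein-coding genes apply.

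For 14 amino acids both a cytosolic and a mitochondrial enzyme were among the genes. Both had a peak for 4 of them, alanine (Aars and Aars2), cysteine (Cars and Cars2), phenylalanine (Farsb and Fars2) and valine (Vars and Vars2). Leucine had a peak at the mitochondrial gene only (Lars2) and tryptophan at the cytosolic gene only (Wars). For the other 8 amino acids neither gene had a peak in either list. Among all protein-coding genes 4.31% had a peak in both lists, 12.0% with FGF19 only and 3.62% with vehicle only. The peak counted for Cars2 was near the start of Ing1, and that for Wars in Slc25a47. The summit at Aars was 8470 bp from its nearest TSS. With a summit within 1 kb of the TSS required, both genes had a peak for phenylalanine and valine only.

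Vars, which encodes the cytosolic valyl-tRNA synthetase, had the largest fold enrichment among the synthetase promoter peaks of each list. The gene is at chr17:35137932-35153267 of mm9, plus strand. With vehicle the peak ran from 35137742 to 35138030, with a pileup of 52 tags, a fold enrichment of 6.12 and its summit 109 bp upstream of the TSS. With FGF19 it ran from 35137714 to 35138436, with a pileup of 33 tags, a fold enrichment of 5.30 and its summit 13 bp downstream of the nearest TSS of the gene. By q-value it ranked 106 in the vehicle list of 1508 and 254 in the FGF19 list of 3155. The vehicle summit lay nearer to another start, 78 bp inside the divergent gene D17H6S56E-5, whose annotated start is 677 bp from that of Vars.

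Farsb encodes the beta chain of the cytosolic phenylalanyl-tRNA synthetase and lies on the minus strand of chromosome 1 from 78414533 to 78485434. Its peak was chr1:78485429-78485686 with vehicle, chr1:78485412-78485724 with FGF19, and both summits were upstream of the TSS, by 173 bp and 75 bp. The pileup was 51 tags in the vehicle library, 40 in the FGF19 library, while fold enrichment was 3.19 in the former, 4.84 in the latter. The measures therefore order the groups in opposite ways at this promoter, and the local input background was 15.3 tags in the former and 7.47 in the latter. The gene for the partner chain, Farsa, had no peak within 5 kb. The 101 bases around the FGF19 summit at Farsb, chr1:78485459-78485559 of mm9 on the strand of the gene, are shown. The summit lies inside an E-box, CACGTG, in capitals.
Farsb: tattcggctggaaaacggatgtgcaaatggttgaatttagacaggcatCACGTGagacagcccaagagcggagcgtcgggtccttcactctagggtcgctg

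Cars, the cytosolic cysteinyl-tRNA synthetase gene, lies on the minus strand of chromosome 7 from 150743135 to 150785995. Its peak was chr7:150785841-150786134 with vehicle, chr7:150785861-150786269 with FGF19, and the summits were only 3 bp apart, 46 bp and 43 bp upstream of the TSS. The pileup was 24 tags with vehicle and 19 with FGF19, and the fold enrichment 3.71 and 4.32. A non-coding transcript, Gm15579, starts within 2 bp of both summits. Both intervals hold the only amino acid response element found at a synthetase peak, TGATGNAA on either strand, the sequence through which ATF4 with a C/EBP partner acts. The stretch around the FGF19 summit as far as the gene start, chr7:150785996-150786088, is given on the strand of the gene, and after it the response element, chr7:150785951-150785978, where the match is in capitals and reads on the other strand.
Cars upstream: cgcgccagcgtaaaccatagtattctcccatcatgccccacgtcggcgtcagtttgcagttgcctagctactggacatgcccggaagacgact
Cars element: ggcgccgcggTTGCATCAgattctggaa

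The remaining cytosolic promoter peaks, at Kars and Dars, were listed with FGF19 only. Kars, for lysine, lies on the minus strand of chromosome 8 from 114517340 to 114535223, and its peak from 114535299 to 114535681 had a pileup of 19 tags and a fold enrichment of 4.11. The summit was 242 bp upstream of Kars and 206 bp downstream of the start of Terf2ip, which encodes the telomere protein RAP1, in a coding exon of that gene. The annotated starts of Kars and Terf2ip are 36 bp apart, so the peak belongs to a shared promoter. Dars, for aspartate, lies on the minus strand of chromosome 1 from 130260285 to 130313993. Its peak from 130313418 to 130313955 had its summit 493 bp downstream in an intron, a pileup of 22 tags and a fold enrichment of 2.85, number 2940 of 3155 by q-value.

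Among the mitochondrial genes, the largest fold enrichment with FGF19 was at Aars2, the alanyl-tRNA synthetase gene, on the plus strand of chromosome 17 from 45643790 to 45657791. The peak ran from 45643778 to 45644039, with a pileup of 29 tags, a fold enrichment of 4.80 and its summit 117 bp downstream of the TSS, in a coding exon. There was no vehicle peak within 1125500 bp of Aars2. Vars2, the mitochondrial valyl-tRNA synthetase gene, lies on the same chromosome on the minus strand from 35792579 to 35804537. Its FGF19 peak, from 35804415 to 35804700, had a pileup of 23 tags, a fold enrichment of 3.74 and its summit 25 bp upstream of the TSS. These sequences, chr17:45643857-45643957 for Aars2 and chr17:35804538-35804612 for Vars2, are each on the strand of the gene. The Vars2 stretch holds 2 matches to the core of the motif for NRF1, an activator of nuclear genes for mitochondrial proteins, GCATGCGC, in capitals, 17 bp and 9 bp from the summit on either side. The Aars2 stretch holds no match to the motifs searched.
Aars2: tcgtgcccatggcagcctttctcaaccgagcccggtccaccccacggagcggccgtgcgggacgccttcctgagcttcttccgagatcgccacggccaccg
Vars2: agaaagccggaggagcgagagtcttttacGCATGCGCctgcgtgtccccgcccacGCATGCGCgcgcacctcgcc

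Fars2, the mitochondrial phenylalanyl-tRNA synthetase gene, was the only mitochondrial gene with a promoter peak in both lists, and it is the longest of the 36 genes at 420182 bp. It lies on chromosome 13 from 36209280 to 36629461, on the plus strand, and the start of the divergent gene Lyrm4 is 54 bp from its own. The peak was chr13:36209487-36209832 with vehicle, chr13:36209193-36209756 with FGF19, with summits 338 bp and 301 bp downstream of the TSS. Pileup was 35 and 33 tags and fold enrichment 4.16 and 3.89, so the groups were close by both measures. Ears2, for glutamate, had an FGF19 peak on chromosome 7 from 129210373 to 129210747, with a summit 53 bp downstream of a TSS, a pileup of 26 tags and a fold enrichment of 2.84. An E-box lay 43 bp from this summit (chr7:129210502-129210529, minus strand, E-box in capitals).
Ears2: tggccgagccgCACGTGgtggccctcgg

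Lars2, which encodes the mitochondrial leucyl-tRNA synthetase on the plus strand of chromosome 9 from 123276058 to 123371782, had a peak at each end of the gene. At the promoter it had a peak with vehicle only, from 123276010 to 123276249, with a pileup of 27 tags, a fold enrichment of 4.80 and its summit 35 bp downstream of the TSS. Here AANATGGC, the core of the motif of YY1, a zinc finger factor, lies 25 bp from the summit and is shown in capitals (chr9:123276055-123276082). The study also names this motif for SREBP-2, an activator of cholesterol synthesis genes. A further peak, in both lists, lay in an untranslated or non-coding exon near the gene end, at chr9:123370947-123371317 (vehicle) or chr9:123370931-123371337 (FGF19), 95084 bp and 95085 bp from the TSS. That peak had the largest pileup of the group, 120 and 113 tags, and the smallest fold enrichment, 1.89 and 1.69. The input background there was 63.2 and 66.6 tags, above that of 99.5% of the peaks in each list, where the medians were 4.84 and 5.25.
Lars2: ttgttttgccAACATGGCggcgcccaga

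**Figure D2:**
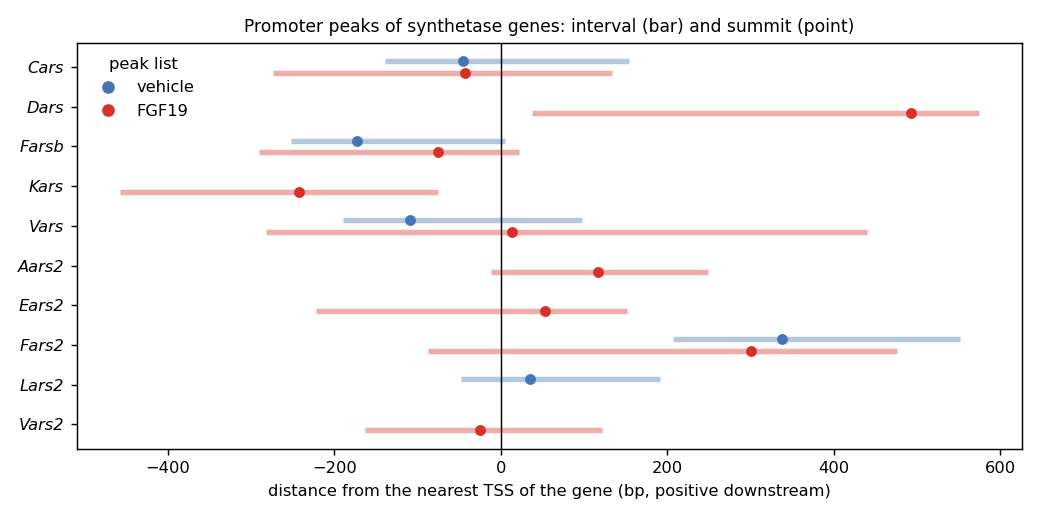
Position of the promoter peaks of 10 synthetase genes relative to the nearest TSS of the gene (x axis, bp, positive downstream), with the peak interval as a bar and the summit as a point, blue for vehicle and red for FGF19. Summits lie between 242 bp upstream (Kars) and 493 bp downstream (Dars), and Lars2 has a vehicle peak only.

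The promoter summits lay on both sides of the TSS. With FGF19, 4 were upstream and 5 downstream, at a median distance of 75 bp, and with vehicle 3 were upstream and 2 downstream, at a median of 109 bp. With FGF19 the median distance was 75 bp for the cytosolic genes and 85 bp for the mitochondrial genes. The 3 cytosolic vehicle summits were all upstream and the 2 mitochondrial ones downstream.

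Several peaks counted for a synthetase gene lay at another gene. Of the 16 FGF19 peaks within 5 kb of a synthetase gene, 8 had a different gene at the nearest TSS, and of the 8 in the vehicle list 5 did, a non-coding start at Cars included. Qars, for glutamine, ends on chromosome 9 at 108418272, and the peak behind it was at the promoter of the next gene, Qrich1. This peak ran from 108419173 to 108419698 with vehicle, with a pileup of 45 tags and a fold enrichment of 6.82, the largest value at any synthetase gene. With FGF19 it ran from 108419100 to 108419472, with a pileup of 33 tags and a fold enrichment of 3.07. The summits were 54 bp and 115 bp upstream of Qrich1, and 1092 bp and 1031 bp past the end of Qars. A further FGF19 peak, from 108419872 to 108420139, had its summit in an intron of Qrich1 and a fold enrichment of 3.34. Around the FGF19 summit the sequence, chr9:108419253-108419353 on the plus strand, holds no match to the motifs searched, and 79 bp from the vehicle summit lies the YY1 core, shown in capitals (chr9:108419430-108419457).
Qars end: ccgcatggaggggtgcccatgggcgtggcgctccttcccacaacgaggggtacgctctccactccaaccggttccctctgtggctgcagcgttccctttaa
Qars end core: ggctgaatgtAAGATGGCgcccagggag

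Further peaks away from the gene's own promoter were at the promoter of a neighbour or in an untranslated or non-coding exon. Dars had an FGF19 peak 4011 bp past its end, with its summit 41 bp upstream of Mcm6, a subunit of the replicative helicase, a pileup of 16 tags and a fold enrichment of 4.15. Cars2, for mitochondrial cysteine, had an FGF19 peak with a pileup of 28 tags and a fold enrichment of 3.60, but its summit was 4924 bp upstream of Cars2 and 371 bp upstream of Ing1, which encodes a reader of methylated histone H3. Wars, for tryptophan, had no peak at its own promoter. The peak counted for Wars, in both lists, was in an untranslated or non-coding exon of Slc25a47, a gene for a liver mitochondrial carrier. It had a fold enrichment of 5.68 (vehicle) and 3.54 (FGF19) and a pileup of 23 and 19 tags. Aars, for alanine, had an FGF19 peak in an untranslated or non-coding exon of its own, with a pileup of 24 tags and a fold enrichment of 4.14. Its summit was 23238 bp from the gene start and 8470 bp from the nearest TSS of Aars. Without the peaks whose nearest TSS is that of another gene, 3 synthetase genes had a peak with vehicle and 8 with FGF19, where 5.42% and 11.7% of all protein-coding genes did by the same rule.

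**Figure D3:**
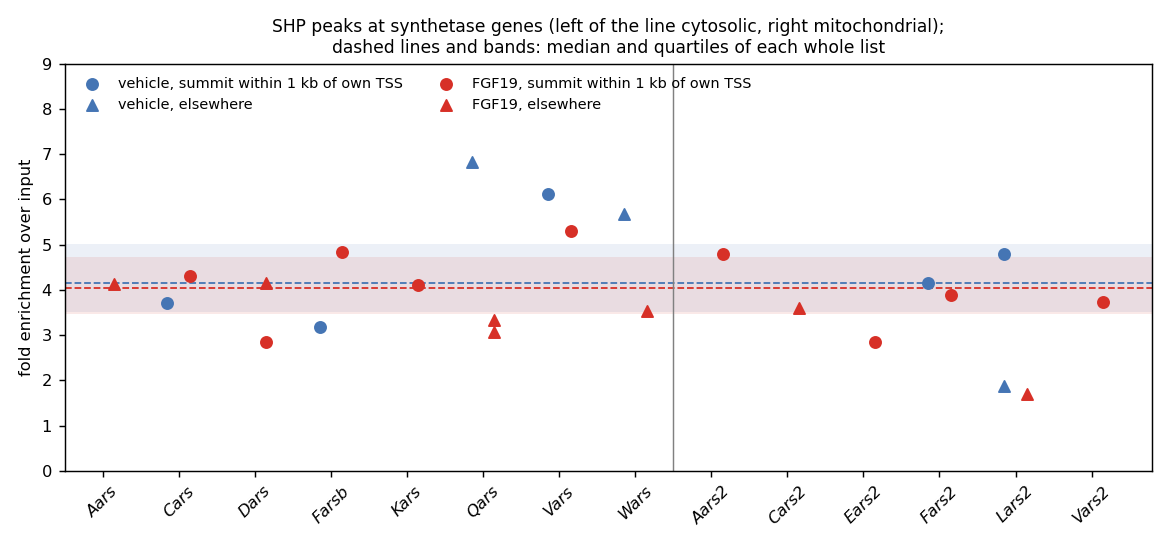
Fold enrichment over input (y axis) of each peak within 5 kb of a synthetase gene, in blue for vehicle and red for FGF19, with circles for summits within 1 kb of a TSS of the gene and triangles for peaks elsewhere, and with the median (dashed) and quartiles (band) of each whole list. Values run from 1.69 at the end of Lars2 to 6.82 behind Qars, and the FGF19 peaks lie around the median of their list.

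By strength the synthetase peaks lay near the middle of the FGF19 list, and in the vehicle list most were above its medians. With FGF19 the median fold enrichment of the 16 peaks was 3.81 (range 1.69 to 5.30), against 4.05 in the whole list, and 7 of the 16 were above that value. The median pileup was 25 tags, against 24. With vehicle the median fold enrichment of the 8 peaks was 4.48 (range 1.89 to 6.82), against 4.14, with 5 of 8 above, and the median pileup 40 tags, against 24, with 6 of 8 above. At the 5 promoter peaks with vehicle the median fold enrichment was 4.16, close to that of the list, with 3 above it. Their median pileup was 35 tags, with 4 above 24. At the 9 promoter peaks with FGF19 the medians were 4.11 and 26 tags. With FGF19 the median fold enrichment was 4.12 at the 10 cytosolic peaks and 3.67 at the 6 mitochondrial peaks, whereas the median pileup was 22.5 and 28.5 tags. With vehicle the median fold enrichment was 5.68 at the 5 cytosolic peaks and 4.16 at the 3 mitochondrial peaks, and the median pileup 45 and 35 tags. The cytosolic peaks include those at Qrich1 (fold enrichment 6.82) and in Slc25a47 (5.68), and the mitochondrial ones the end of Lars2 (1.89). Over all peaks within 5 kb the measures thus order the class medians in opposite ways with FGF19 and in the same way with vehicle. At the genes' own promoters, vehicle fold enrichment was 3.71 (Cars), 3.19 (Farsb) and 6.12 (Vars), and 4.16 (Fars2) and 4.80 (Lars2). The pileup there was 24, 51 and 52 tags for the cytosolic genes, and 35 and 27 for the mitochondrial ones. The order by fold enrichment with vehicle therefore depends on which peaks are counted.

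The lists share 7 peaks at synthetase genes, at Cars, Farsb, Qars, Vars, Wars, Fars2 and the end of Lars2. At all 7 the pileup was lower with FGF19 than with vehicle, by a median of -0.34 on the log2 scale, and across all 695 overlapping pairs of peaks in the lists it was lower in 329, with a median of 0. The vehicle library was 1.15 times as deep. Scaled to the number of filtered ChIP tags, the pileup was lower with FGF19 at 5 of the 7 and higher at Fars2 and the end of Lars2, and the median log2 ratio was -0.13, against 0.20 over all pairs. Of all pairs 73.5% were higher with FGF19 on that scale. The fold enrichment was higher with FGF19 at Farsb (log2 ratio 0.60) and Cars (0.22) and lower at the other 5, with the largest differences at Qars (-1.15) and Wars (-0.68). By pileup these were -0.45 and -0.28, scaled to depth -0.24 and -0.07, and the largest difference was at Vars, -0.66 by pileup and -0.45 scaled to depth. The median log2 ratio of fold enrichment was -0.16 at the 7 peaks and -0.02 over all pairs. Tags were extended to 240 bp with vehicle and 260 bp with FGF19, which enters the pileup on every scale.

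**Figure D4:**
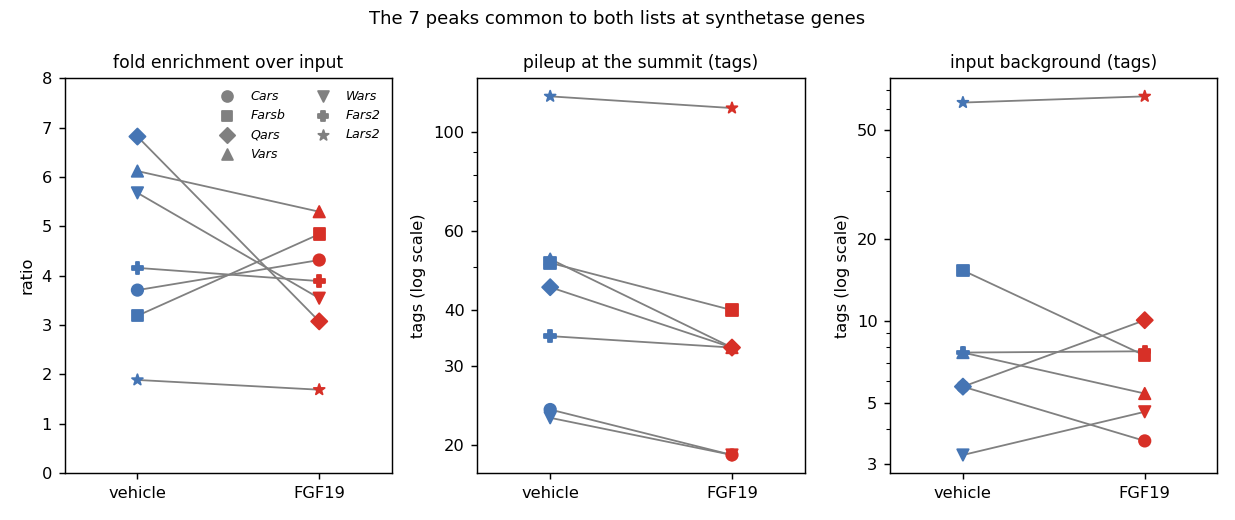
Fold enrichment, pileup and input background (y axes, the last 2 in tags on a log scale) of the 7 peaks at synthetase genes that are in both lists, each line joining vehicle (left) and FGF19 (right). Pileup is lower with FGF19 on every line, whereas fold enrichment is higher at Farsb and Cars, where the input background was lower with FGF19.

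The input background, worked out from pileup and fold enrichment and so not an independent measure, was higher in the group with the lower fold enrichment at 6 of the 7 peaks, all but Vars. Its values at Cars were 5.74 tags (vehicle) and 3.63 (FGF19). At Qars they were 5.74 and 10.1, at Wars 3.23 and 4.64, and at Fars2 7.66 and 7.74. At Vars both background and fold enrichment were lower with FGF19, the background at 7.66 and 5.42. The part of the input in the differences of fold enrichment was not tested.

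**Figure D5:**
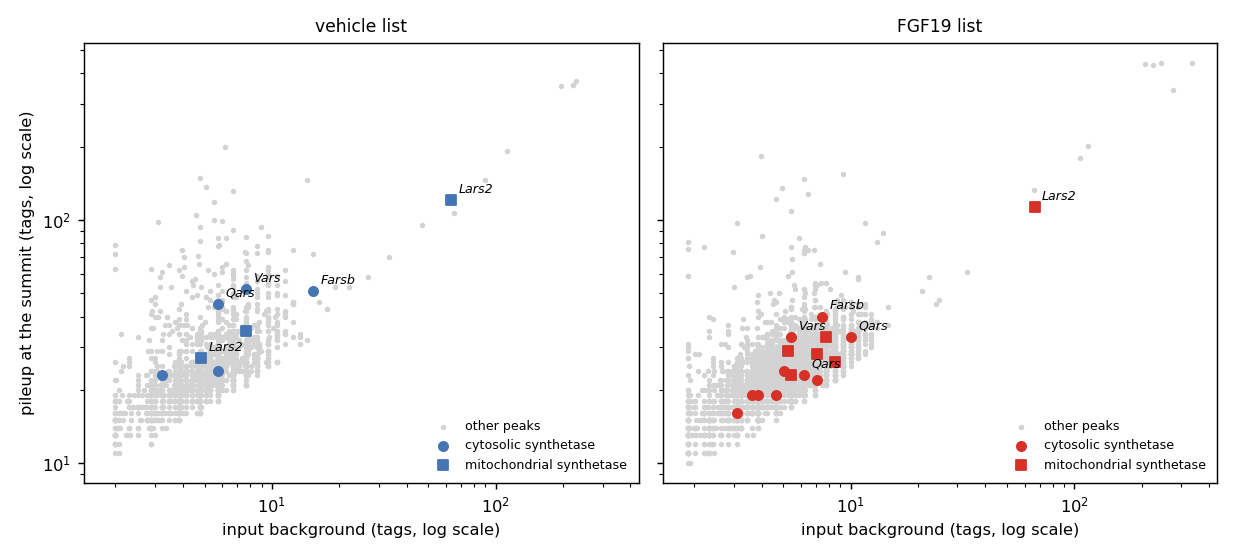
Pileup at the summit against the input background worked out from pileup and fold enrichment (both in tags, log axes) for the nuclear peaks of the vehicle list (left) and the FGF19 list (right), with synthetase peaks in colour, circles cytosolic and squares mitochondrial. The peak at the end of Lars2 lies far to the right of the other synthetase peaks in both lists, at 63.2 and 66.6 tags of background.

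Motifs were searched as exact matches on both strands, 100 bp to each side of every summit. Distances between a motif and a summit are taken from the middle of the match. A match to at least 1 of 6 motifs was found at 3 of 8 peaks in the vehicle list, and at 7 of 16 in the FGF19 list, against 37.6% and 36.6% of all peaks in those lists and 34% of all promoter windows. The amino acid response element, at Cars, was at 1 peak of each list, against 1.79% and 0.983% of all peaks. The E-box CACGTG was at 3 of 16 FGF19 peaks, namely Farsb, Ears2 and Vars, and at 0 of 8 vehicle peaks, against 6.40% and 6.37% of all peaks and 5.56% of all promoter windows of the same length. At Vars it lay 43 bp from the FGF19 summit (chr17:35138039-35138066, plus strand, E-box in capitals). The YY1 core AANATGGC was at 2 of 8 vehicle peaks, the promoter of Lars2 and the peak behind Qars, and at 0 of 16 FGF19 peaks, against 9.75% and 7.54% of all peaks and 5.72% of promoter windows. These counts follow the summits, which lie apart in the lists: the core behind Qars is also inside the FGF19 interval, and the E-box at Farsb is also inside the vehicle interval. The NRF1 core was at Vars2 only, against 3.49% of all FGF19 peaks and 2.58% of promoter windows. The SP1 sequence CCCCGCCCC was at 1 FGF19 peak, behind Qars, against 14.8% of all FGF19 peaks and 11.9% of promoter windows. NF-Y, ATTGGC, was at 1 peak of each list, Qars with vehicle and Dars near Mcm6 with FGF19, against 11.2% and 11.1%, and 12.0% of promoter windows. A match is a description of the letters and not a site of binding.
Vars: aaagggggggaCACGTGggtgccgctgt

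The starts of the synthetase genes were also read without regard to peaks, in 201 bp around the annotated gene start. The amino acid response element TGATGNAA was at 5 of 36 genes, 13.9%, where 2.28% of all promoter windows held it. All 5, Cars, Gars, Iars, Nars and Tars, are cytosolic. Of them only Cars had an SHP peak within 5 kb, in both lists, as did 4.31% of all protein-coding genes. The core AANATGGC was at 8 genes, 22.2%, against 5.72% of all promoter windows, and these were Farsa, Kars, Nars, Aars2, Lars2, Sars2, Wars2 and Yars2. An SHP summit within 1 kb of the TSS was listed at Kars and Aars2 with FGF19, against 12.5% of all protein-coding genes. With vehicle it was listed at Lars2, against 5.52%. Of all 36 synthetase genes, 10 had such a summit in either list, 27.8%. A link between these sequences and the peaks was not tested. The promoters of the synthetase genes had a median GC content of 60.4% and a median CpG ratio (observed over expected) of 0.766 in 501 bp around the start, against 57.1% and 0.588 for all protein-coding genes. GC content was the same in the median, 60.4%, for the 10 synthetase genes with a promoter peak in either list and the 26 without, while the CpG ratio was 0.859 and 0.762, with overlapping ranges.

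A head-to-head coding neighbour, with its start within 1 kb on the other strand, was annotated for 10 of the 36 genes. Of these, 4 had a promoter peak with FGF19 (Kars with Terf2ip, Vars with D17H6S56E-5, Ears2 with Ubfd1 and Fars2 with Lyrm4), and 5 of the other 26 did. With vehicle it was 2 of 10 and 3 of 26. Among all protein-coding genes with such a neighbour, 28.1% had a promoter peak with FGF19 and 14.5% with vehicle, and among those without one 10.6% and 4.43%. Hars and Hars2, whose starts are 197 bp apart, Yars with S100pbp, Wars with Wdr25, Rars2 with Orc3 and Sars2 with Mrps12 had no promoter peak.

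No peak of either list lay within 5 kb of the remaining 22 genes. The cytosolic ones were Eprs, Farsa, Gars, Hars, Iars, Lars, Mars, Nars, Rars, Sars, Tars and Yars, and the mitochondrial ones Hars2, Iars2, Mars2, Nars2, Pars2, Rars2, Sars2, Tars2, Wars2 and Yars2. The limit of 5 kb fell between Cars2, whose peak was 4791 bp from the gene, and Mars, whose nearest FGF19 peak was 7029 bp away. Next came Hars2, with a peak 9095 bp away with vehicle and 9143 bp with FGF19, and Farsa, with an FGF19 peak at 9755 bp. For Lars the nearest peak of either list was 2566508 bp away. A gene without a peak did not pass the q-value cutoff of 0.05 in these libraries, and signal below it was not analysed.

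Of 16 further genes of tRNA charging and its control, 5 had a peak within 5 kb with FGF19 (16.3% of all protein-coding genes did), 1 with vehicle (7.93%) and 0 with both (4.31%). Aimp1, a scaffold of the multisynthetase complex, had a peak with vehicle only, with its summit 114 bp upstream of the TSS, a pileup of 50 tags and a fold enrichment of 6.62. That is above the value of every synthetase promoter peak. With FGF19 only, peaks were listed at the promoters of Tarsl2, a further threonyl-tRNA synthetase gene (fold enrichment 4.78), Mtfmt, which formylates the mitochondrial initiator tRNA (4.43), Pstk, a kinase in selenocysteine tRNA charging (3.61), and Atf4, the activator of the amino acid response (3.27). For Ddit3, which encodes the ATF4 partner CHOP, the FGF19 peak had a fold enrichment of 4.78, but its summit was 1785 bp upstream of Ddit3 and 29 bp downstream of a start of Mbd6. No peak was listed at the other 10 genes, among them the scaffolds Aimp2 and Eef1e1 and the kinase gene Eif2ak4, which senses uncharged tRNA.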

How the data were processed

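The authors aligned reads to mm9 with Bowtie 1.0.0, allowing up to 2 mismatches, and called peaks against each group's own input with MACS2 2.0.10.20130501, at a q-value cutoff of 0.05 with duplicates limited to 1 tag. The deposited signal is the ChIP pileup at the summit, which was not scaled because the ChIP library was the smaller. The deposited fold enrichment is a ratio of pileup to local input background, and the deposited −log10 p-values and q-values are those of the peak caller. The background was worked out as (pileup + 1) / fold enrichment - 1. Peaks were set against GENCODE M1 genes and 95495 transcripts, which use the build of the peaks, and were common when they shared at least 1 bp. Sequences are from mm9. The printed windows, up to 101 bases, leave out bases in annotated untranslated exons, so none is shown for the summits at Vars, Fars2, Wars and the end of Lars2; single motif matches are shown in up to 28 bases.

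All 36 genes were found, and every gene with a peak is named. Members and lists were chosen with earlier results of these data known. With 1 pooled library per group no test was run, and the comparisons are counts and values. The functions were tested on simulated data and passed 8 of 8 checks. Alternatives covered window, summit, q-value cutoff, list length, nearest TSS, annotated start, overlap and measure. Tools were pyfaidx 0.9.0.4, matplotlib 3.10.9, scipy 1.17.1, pandas 2.3.3 and numpy 2.4.6 under Python 3.11.15.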

Additional observations from a re-analysis of the deposited data

How the results depend on the processing

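Of 102 values recomputed under an alternative, 78 changed by no more than 1.5 times and kept their sign, 18 moved by more, and 6 changed sign. Shortening the FGF19 list to the length of the vehicle list moved the synthetase genes with an FGF19 peak from 14 to 5. Of these 3 were cytosolic and 2 mitochondrial, and the share of all protein-coding genes went from 16.3% to 8.06%. Synthetase genes in both lists went from 7 to 3, with FGF19 only from 7 to 2 and with vehicle only from 0 to 4. These splits were not computed for all protein-coding genes under the shortened list, so the changes cannot be set against theirs. Requiring that the synthetase gene have the nearest TSS gave 3 genes with vehicle (1 cytosolic), 8 with FGF19 (4 cytosolic), 2 in both lists and 1 with vehicle only, against 5.42%, 11.7%, 2.55% and 2.87% of all protein-coding genes. Requiring overlap with the gene body gave 3 cytosolic genes with vehicle and 5 with FGF19, against 5.67% and 12.5% of all protein-coding genes. Leaving out the peaks with the highest 1% of input background, which was chosen once the data had been seen, gave 1 gene with vehicle only, since the peak at the end of Lars2 was dropped from both lists. The log2 ratio of FGF19 to vehicle changed sign with the measure at Cars (-0.34 by pileup and -0.13 by depth-scaled pileup) and Farsb (-0.35 and -0.15), and by depth-scaled pileup at Fars2 (0.12) and the end of Lars2 (0.12). It kept its sign but moved at Qars (-0.45 and -0.24) and, by depth-scaled pileup, Wars (-0.07). No paired analysis was possible because each group is 1 pooled library. Depth limits the lists to peaks past the cutoff, and a gene in 1 list only may hold weaker signal in the other.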
